A study of Mus musculus with 4 samples.

Results

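Among tumor T cells of mice with B16 melanoma, 274 cells carried 2 or more UMIs (counted RNA molecules) summed over Ifit1 and Ifit3, and they were compared with 4502 cells that carried none of either gene. The 274 cells, called Ifit-positive here, were 216 cells labelled Tdp and 58 cells labelled Cd4. The 4502 Ifit-negative cells were 2252 Tdp-labelled and 2250 Cd4-labelled cells. A further 368 cells with exactly 1 UMI were left out of both sides. These cells made up the 5144 Tdp- and Cd4-labelled cells of a tumor library of 5570 cells, in a series of 10558 cells. The cells were chosen by the measured counts of 2 genes of the response itself, so Ifit1 and Ifit3 were left out of every level and total below. Other genes of the same cells are described with no test.

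The cells came from B16F10 melanomas, a transplantable mouse skin tumor, implanted under the skin. The mice received cyclophosphamide once, at 250 mg/kg, and 1 day later purified CD4 T cells of a strain labelled RAG1- BW TRP-1 TCR, whose receptor recognises the melanocyte protein TRP1. Tumors were resected on day 11 after transfer, and T cells carrying the CD45.1 marker of the donor and sorted as CD4+ or CD4+CD8+ entered 1 RNA library. Both sides of the comparison share all of this, although the labels give the treatment as untreated. The meaning of Tdp is not spelled out in the sources used here. The tumor library is titled transgenic and endogenous, and the labels Tdp and Cd4 do not say which a cell is. With 1 tumor library there was no replicate, so no p-value was computed. All intervals are 95% intervals that cover counting error only.

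Type I interferons bind the receptor made of Ifnar1 and Ifnar2, and the kinases Jak1 and Tyk2 then activate transcription factors, Stat2 among them. Stat2 and Irf9 are part of the complex ISGF3, which binds the interferon-stimulated response element (ISRE) in the promoters of interferon-stimulated genes. Interferon gamma acts through Ifngr1 and Ifngr2 and leads to binding at the gamma activated site (GAS). Ifit1 encodes a protein that recognises viral RNA, and Ifit1 and Ifit3 are classical targets of ISGF3. T cells with a raised interferon-stimulated program have been described in many tumors.

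The promoters shown place the response element against the gene start. They are those of the selecting genes, of the genes among the 16 highest pooled ratios with a core upstream of the start, and of Irgm1 as an example of the interferon gamma GTPases. Sequences are from RefSeq (GRCm38.p6), on the gene's strand, 5′ to 3′, and the capitals mark every match upstream of the start to the ISRE core, GAAA, any 2 bases, GAAA, or its reverse complement.
Ifit1, chr19:34640765-34640833, plus strand, 124 to 56 bases before the start: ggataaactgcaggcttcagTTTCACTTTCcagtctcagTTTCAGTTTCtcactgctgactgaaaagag
Ifit3, chr19:34583353-34583436, plus strand, 176 to 93 bases before the start: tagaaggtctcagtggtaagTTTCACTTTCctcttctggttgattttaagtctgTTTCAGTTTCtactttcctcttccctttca
Ifit3b, chr19:34607749-34607832, plus strand, 208 to 125 bases before the start: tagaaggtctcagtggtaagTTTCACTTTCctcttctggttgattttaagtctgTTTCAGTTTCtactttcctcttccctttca
Isg15, chr4:156200855-156200916, minus strand, 98 to 37 bases before the start: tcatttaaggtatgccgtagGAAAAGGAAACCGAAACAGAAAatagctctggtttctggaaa
Rsad2, chr12:26456543-26456592, minus strand, 140 to 91 bases before the start: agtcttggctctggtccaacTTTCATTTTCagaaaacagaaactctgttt
Cxcl10, chr5:92349073-92349122, minus strand, 233 to 184 bases before the start: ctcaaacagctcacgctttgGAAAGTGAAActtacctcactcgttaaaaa
Slfn5, chr11:82951927-82951976, plus strand, 175 to 126 bases before the start: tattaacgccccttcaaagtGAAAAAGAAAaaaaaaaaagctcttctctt
Ifit1bl1, chr19:34602043-34602092, minus strand, 124 to 75 bases before the start: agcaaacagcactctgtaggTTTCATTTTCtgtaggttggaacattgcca
Ifi208, chr1:173673587-173673636, plus strand, 78 to 29 bases before the start: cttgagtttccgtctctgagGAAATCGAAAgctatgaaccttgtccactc
Irgm1, chr11:48871421-48871470, minus strand, 50 to 1 bases before the start: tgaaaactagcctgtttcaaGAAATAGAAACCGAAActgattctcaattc

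Isg15 had 3 overlapping cores in this stretch, and Ifit1 and Ifit3 had 2 each. The stretches of Ifit3 and Ifit3b were the same in 84 of 84 bases. Ifit3b is a near-identical copy of Ifit3, so the counting may lose or misplace reads that the pair shares. The Ifit3b values below are therefore uncertain and tied to the selection.

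Over all 27025 promoters of the table, each 300 bases long from 250 before to 50 after the start, 3.49% held the ISRE core on either strand. It was in 147 of the 3517 counted genes of the Tdp comparison that had a promoter there (4.18%). Of the 101 genes at least 2-fold higher in Tdp-labelled Ifit-positive cells, 77 had a promoter in the table and 33 of those (42.9%) held the core. Within the interferon lists described below it was in 28 of 47 (59.6%), and outside them in 5 of 30 (16.7%), which were Cxcl10, Ifi214, Mitd1, Phf11a and Trim34a. GAS, written TTC, any 3 bases, GAA, was in 12 of the 77 (15.6%), beside 6.85% of the counted genes. Among 19 promoters of genes higher in Cd4-labelled Ifit-positive cells, 8 (42.1%) held the ISRE core and 1 (5.26%) held GAS, beside 4.46% and 8.27% of the 1680 promoters of genes counted there. A match describes these letters only, and no match says nothing of binding elsewhere, as for Irf7, Cmpk2 and Xaf1, whose windows held neither motif.

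The Tdp label held the larger share of Ifit-positive cells. They were 216 of 2693 Tdp-labelled cells, or 8.02% (7.02 to 9.11), and 58 of 2451 Cd4-labelled cells, or 2.37% (1.80 to 3.05). When every cell was thinned to 2000 UMIs, which left out 30 and 33 shallower cells, the shares with 2 or more UMIs were 3.19% and 0.455%. The lymph node library is titled endogenous and the tumor library transgenic and endogenous, so they differ in more than tissue. In the lymph node library the same rule took 13.2% of Cd4-labelled and 15.5% of Cd8-labelled cells. Of the selecting genes themselves, Tdp-labelled Ifit-positive cells held 686 Ifit1 and 498 Ifit3 UMIs, a ratio of 1.38, and Cd4-labelled ones held 146 and 46, a ratio of 3.17. Both genes were seen in 57.9% of the Tdp-labelled and 37.9% of the Cd4-labelled Ifit-positive cells. Just inside the threshold, with exactly 2 UMIs, were 87 Tdp-labelled and 37 Cd4-labelled cells, and just outside it, with 1, were 225 and 143. The highest Tdp-labelled cell had 62 UMIs over the pair and the next had 27.

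Sequencing depth differed little between the sides. The median was 6099 UMIs in Tdp-labelled Ifit-positive and 6647.5 in Ifit-negative cells, and 5950.5 and 5520 in Cd4-labelled cells. Mitochondrial genes took a median of 1.91% and 1.97% of UMIs in the Tdp-labelled sides and 1.98% and 2.03% in the Cd4-labelled ones. The tumor and lymph node libraries shared 36 cell barcodes, none of them an Ifit-positive tumor barcode.

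In Tdp-labelled cells most of the genes that were higher on the Ifit-positive side were on the interferon lists, and no counted gene was 2-fold lower. Among the 4421 counted genes, 101 reached a 2-fold higher level (2.28%) and 0 a 2-fold lower one (0%). A gene was counted when the mean of its levels on the sides was at least 20 CPM (UMIs scaled to 1000000 UMIs per side). That mean also had to be worth at least 20 UMIs in the shallower side. A gene high on only one side could therefore pass. A gene under 20 CPM in Ifit-negative cells, such as Rsad2 at 6.43 or Cmpk2 at 6.57 CPM, was counted only if higher in Ifit-positive cells. The counts of genes and list members above 1 or at 2-fold include such genes, and no count without them was made. The median log2 ratio over all counted genes was -0.02. The interferon lists, which held 110 counted genes, gave 60 of the 101, and 41 were outside them. The lists are not complete, so the 41 can include other interferon-stimulated genes. All 101 stayed above a ratio of 1 when cells were thinned to 2000 UMIs, and 91 of them stayed at 2-fold. With exactly 1 UMI included in the positive side, 66 of the 101 were at 2-fold.

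The genes at the top of the Tdp-labelled comparison were mostly antiviral effectors. Cxcl10, a chemokine outside the interferon lists that draws cells bearing Cxcr3, stood at 183 CPM in Ifit-positive and 5.84 CPM in Ifit-negative cells, a ratio of 31.2 (24.5 to 40.2). It was concentrated, since 1 cell held 62 of its 259 UMIs and 17.1% of Ifit-positive cells had any, and without that cell the ratio was 23.9. Rsad2 (viperin), which makes a chain-terminating nucleotide, stood at 173 and 6.43 CPM, a ratio of 26.8 (21.2 to 34.3). Its neighbour on chromosome 12, Cmpk2, a nucleotide kinase of mitochondria, stood at 114 and 6.57 CPM, a ratio of 17.4 (13.5 to 22.5). Isg15, a ubiquitin-like modifier, was the most abundant of them at 1465 and 126 CPM, a ratio of 11.6 (10.9 to 12.4), and was seen in 88.9% and 41.5% of cells. Thinning to 2000 UMIs gave 71.5% and 18.2%. Mx1, a gene of the Mx GTPase family, stood at 200.2 and 18.1 CPM, a ratio of 11.1 (9.36 to 13.1). Slfn5, of the Schlafen family, had a ratio of 27.9 (18.3 to 43.3), and Ifit3b, with the limit given above, one of 48.3 (28.7 to 85.6).

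**Figure D1:**
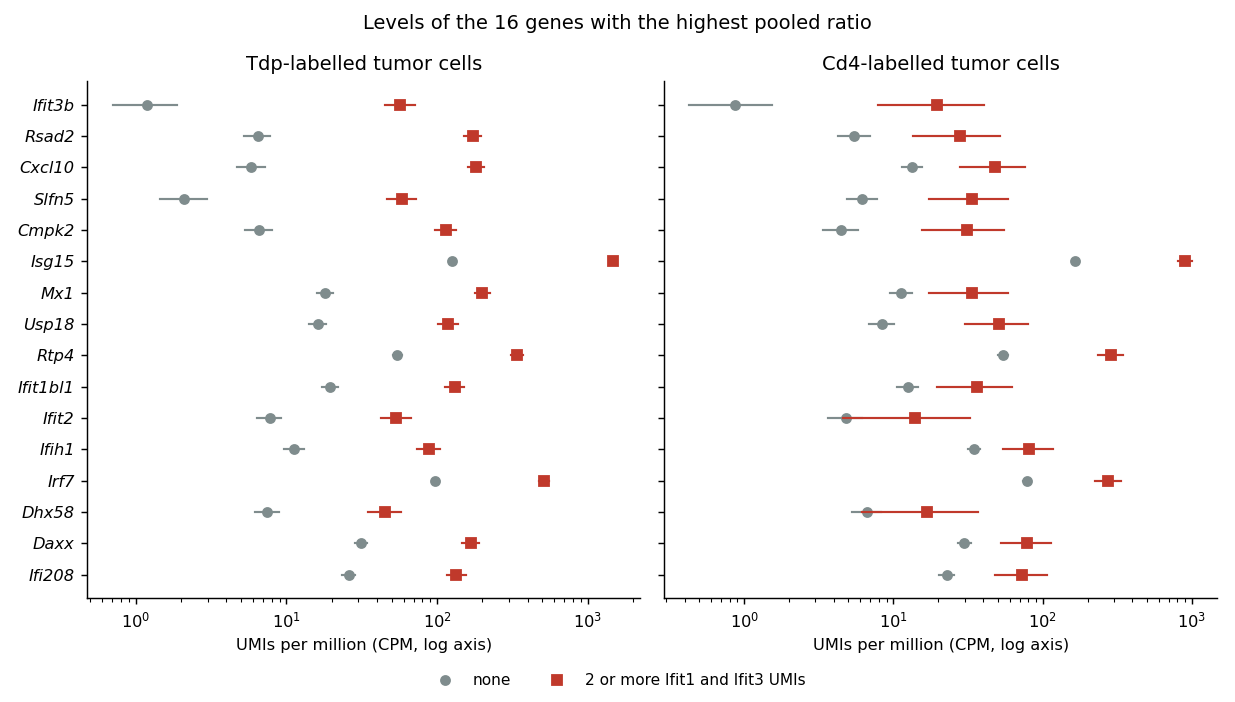
Levels in CPM (log axis) of the 16 genes with the highest pooled ratio, in Ifit-positive cells (red squares) and Ifit-negative cells (grey circles) of each label. Bars are 95% Poisson intervals of the UMI sums, drawn to scale. In Tdp-labelled cells each of the 16 pairs of intervals is apart, with Isg15 at 1465 against 126 CPM, and in Cd4-labelled cells the intervals of Ifit2 and Dhx58 overlap.

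Nearly all counted members of the antiviral list were higher in Tdp-labelled Ifit-positive cells. Some of them, Oas3 and Eif2ak2 below included, were counted only through their level on that side. Of 46 genes on the list, 45 were in the table, 37 were counted, 36 had a ratio above 1 and 31 were at least 2-fold higher, with a median log2 ratio of 1.82. The summed list stood at 14115 and 5896 CPM, a ratio of 2.39 (2.36 to 2.43). Bst2 (tetherin), which holds budding virus at the cell surface, stood at 646 and 192 CPM, and Samhd1, which depletes deoxynucleotides, at 597 and 187. Eif2ak2 (PKR), a kinase that halts translation on double-stranded RNA, stood at 78.3 and 19.0 CPM, and Oas3, which makes the activator of RNase L, at 60.6 and 13.1. Ifi27l2a was the most abundant member at 3401 and 1419 CPM, a ratio of 2.40. Members that stayed under 2-fold included Shisa5 with a ratio of 1.39, Epsti1 with 1.22 and Zc3hav1 with 1.32, and Ifi27 was the 1 member below 1, at 135 and 173 CPM. The 8 members in the table that were not counted had few UMIs, among them Oasl1 with 50 UMIs at 35.2 CPM in Ifit-positive cells against 1.51 CPM, and Oasl2 with 34 at 24 against 0.854. Oas, Gbp, Slfn, Phf11, Trim30, Ifi200 and H2-Q genes have close relatives, and the counting may lose or misplace reads that relatives share.

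The sensors of foreign nucleic acid moved the same way. Of 13 counted members 13 had a ratio above 1 and 11 were at 2-fold, and the summed ratio was 3.20 (3.08 to 3.33). Ifih1 (MDA5), a sensor of long double-stranded RNA, stood at 88.1 and 11.3 CPM, a ratio of 7.80 (6.15 to 9.88). Ddx58 (RIG-I), a sensor of RNA ends, stood at 121 and 31.5 CPM, and their regulator Dhx58 (LGP2) at 45.1 and 7.48. Zbp1, which binds Z-form nucleic acid, stood at 386 and 104 CPM. Tmem173 (STING), the adaptor of cytosolic DNA sensing, stood at 45.1 and 40.3 CPM, a ratio of 1.12 (0.851 to 1.45), and was the counted sensor nearest to 1.

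Among the factors that carry the signal, the ratios differed by step. Irf7, which amplifies interferon production, stood at 515 and 97.4 CPM, a ratio of 5.29 (4.83 to 5.78). Stat2 stood at 79.0 and 16.2 CPM, a ratio of 4.87, and Irf9 at 132 and 69.7, a ratio of 1.89. Jak1 had a ratio of 1.07 (0.956 to 1.19), Tyk2 of 1.35 (0.970 to 1.85) and Stat3, which serves other cytokines, of 0.983 (0.855 to 1.13). The receptors were level: Ifnar1 stood at 98 and 96.7 CPM, Ifnar2 at 38.1 and 35.8, and Ifngr1 at 489 and 493, and the list ratio was 0.992 (0.926 to 1.06). Of the brakes on the pathway, Usp18, which removes Isg15 from proteins and blocks the receptor, had a ratio of 7.33 (5.99 to 8.96), while Socs1 had one of 1.42 (1.26 to 1.60). Ptpn2 and Ptpn6, phosphatases of the same pathway, had ratios of 0.850 and 1.03. The list of brakes as a whole had a ratio of 3.30 (3.17 to 3.43), but 2078 of its 3086 UMIs in Ifit-positive cells were those of Isg15, and without Isg15 the ratio was 1.33 (1.25 to 1.42). In Cd4-labelled cells it was 2.10 with and 1.09 (0.95 to 1.25) without Isg15. The 1 ligand in the table, Ifng, stood at 346 and 277 CPM, a ratio of 1.25 (1.13 to 1.37).

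The GTPases best known as targets of interferon gamma were also higher, and class I presentation genes shifted by small amounts. Of 11 counted GTPases 10 were at 2-fold, with a summed ratio of 2.75 (2.62 to 2.88). Irgm1, which guards vacuoles against microbes, stood at 162 and 36.0 CPM, and Igtp at 229.8 and 67.2. Of 19 counted class I and peptide loading genes 19 had a ratio above 1, but 1, Tapbp (tapasin), was at 2-fold, at 365 and 177 CPM. H2-K1, a class I heavy chain, stood at 3584 and 2924 CPM, a ratio of 1.23 (1.19 to 1.26), and B2m, its partner chain, had one of 1.06 (1.03 to 1.09). Among the Ly6 and Ifitm genes, Ifitm3, which blocks virus entry, had a ratio of 4.09 (3.72 to 4.5) and Ly6a one of 1.72, whereas Ifitm1 had one of 0.599 (0.459 to 0.769), with 33 of its 65 UMIs in 1 cell.

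**Figure D2:**
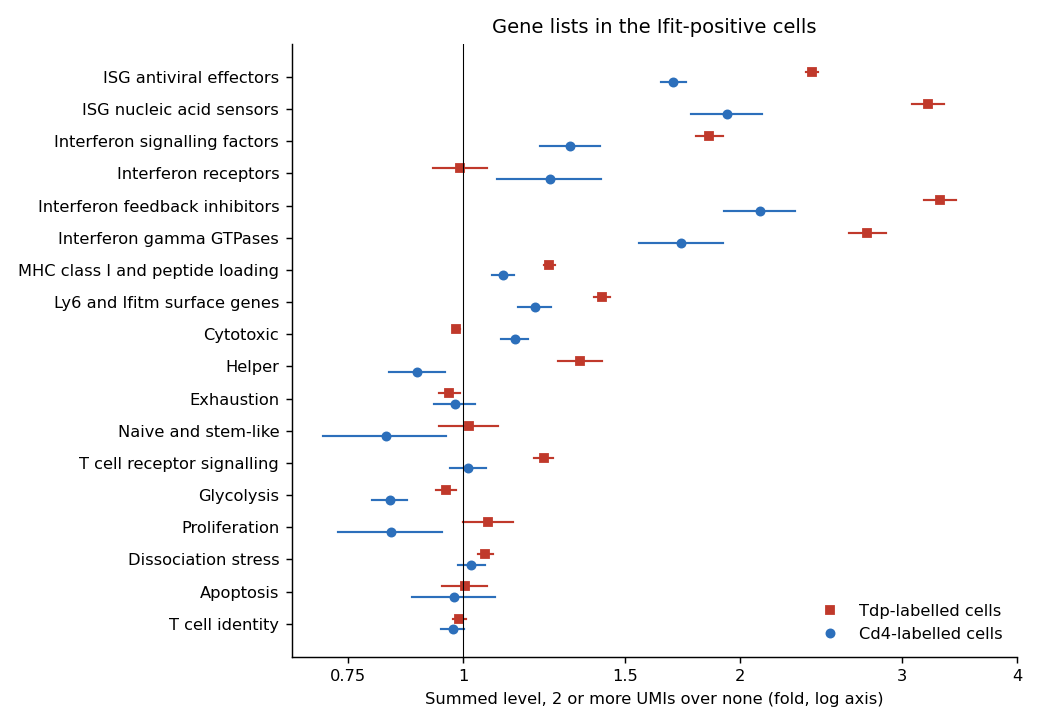
Summed level of each gene list in Ifit-positive over Ifit-negative cells (fold, log axis) for Tdp-labelled (red squares) and Cd4-labelled cells (blue circles), with exact 95% intervals of counting error. The antiviral, sensor and GTPase lists lie between 1.69 and 3.20, the feedback list at 3.30 and 2.10 falls to 1.33 and 1.09 without Isg15, and the lists of T cell functions between 0.824 and 1.34.

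Outside the interferon lists, 41 genes were at 2-fold in Tdp-labelled cells. The lists are not complete: Ifi214, Phf11a and Phf11c fell outside them, while their relatives Ifi208, Ifi213 and Phf11b were on them. A place outside the lists therefore does not mean that a gene does not respond to interferon. Daxx, a partner of the nuclear body protein Pml, stood at 167 and 31.3 CPM, a ratio of 5.35 (4.56 to 6.26), and Pml, of the signalling list, at 98.7 and 23.8. Some genes, named here after their values were seen, encode cell surface proteins. Cd274 (PD-L1), the ligand of PD-1, stood at 56.4 and 19.2 CPM, a ratio of 2.94 (2.27 to 3.78). Cd86, a ligand of Cd28 and Ctla4, had a ratio of 2.19 (1.63 to 2.91) and Il10ra, a chain of the interleukin 10 receptor, one of 2.13 (1.81 to 2.5). With 1 or more UMIs taken as positive, Cd274, Cd86 and Il10ra were under 2-fold. Cd86 was also under 2-fold in cells thinned to 2000 UMIs and without possible doublets, as defined below. Cd274 was under 2-fold without cells with 3 or more proliferation UMIs. Adar, which edits double-stranded RNA, and Trim25, which modifies RIG-I, had ratios of 2.48 and 2.83.

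Most lists for T cell function were close to level in Tdp-labelled cells, and the helper list was higher. The helper list had a ratio of 1.34 (1.27 to 1.42). Of its 11 members only 5 were counted, with all 5 above 1 and 1, Cd40lg, at 2-fold. Cd40lg stood at 3.81 CPM in Ifit-negative cells and was counted only through its Ifit-positive level. Among Tdp-labelled cells with Cd8a or Cd8b1 UMIs only, its ratio was 1.13. The cytotoxic list had a summed ratio of 0.983 (0.974 to 0.993) with 0 of 18 counted members at 2-fold. Its ratio was 1.07 among Tdp-labelled cells with Cd8a or Cd8b1 UMIs only, so its side of 1 depended on the cells used. Within it Gzmb (granzyme B) stood at 3896 and 2956 CPM and Prf1 (perforin), the pore-forming protein, at 145 and 216. The exhaustion list had a ratio of 0.966 (0.941 to 0.992), with Pdcd1 (PD-1) at 228 and 287 CPM, Havcr2 (TIM-3) at 116 and 154 and Cd160 at 62.7 and 99.4. T cell receptor signalling genes had a ratio of 1.22 (1.19 to 1.25), with Nr4a1 at 496 and 404 CPM and Cd69, an early activation marker that interferon also raises, at 619 and 474. T cell identity genes had a ratio of 0.991 (0.975 to 1.01), apoptosis genes 1.00 (0.95 to 1.06) and proliferation genes 1.07 (1.00 to 1.13). The lowest ratios belonged to Ei24, at 19.0 and 37.6 CPM and a log2 ratio of -0.95, Ptpn4 (-0.91), Sept11 (-0.84), Upf3b (-0.84), Ccl9 (-0.77) and Lonp2 (-0.76), each with 20 to 44 UMIs in Ifit-positive cells.

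**Figure D3:**
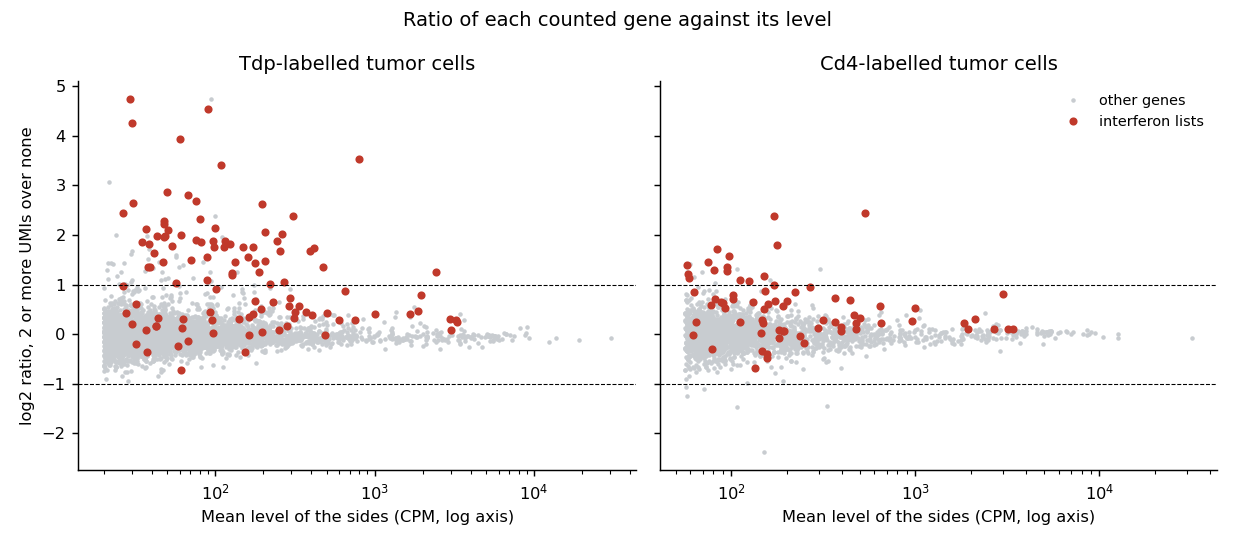
Log2 ratio of each counted gene, Ifit-positive over Ifit-negative, against the mean of its levels on the sides (CPM, log axis), with genes of the interferon lists in red and dashed lines at 2-fold. Above the upper line, 60 of 101 genes are red in Tdp-labelled and 15 of 23 in Cd4-labelled cells, and the 6 genes below the lower line in Cd4-labelled cells are all grey.

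Cd4-labelled Ifit-positive cells also had interferon-stimulated genes on top. Among 2114 counted genes, 23 reached a 2-fold higher level (1.09%) and 6 a 2-fold lower one (0.284%), and the median log2 ratio was -0.002. The interferon lists held 15 of the 23. Isg15 stood at 903 and 165 CPM, a ratio of 5.46 (4.84 to 6.14), and Rtp4, a gene of the antiviral list, at 287 and 54.0, a ratio of 5.31 (4.27 to 6.54). Irf7 stood at 276 and 78.2 CPM, a ratio of 3.53 (2.84 to 4.34), and Xaf1 at 129 and 38.5, a ratio of 3.36. Trim30a had a ratio of 3.02, Irgm1 of 2.77, Rnf213 of 2.71 and Ddx58 of 2.69. The log2 ratio of Ddx58, 1.40 as reported, turned to -0.12 with sides set on cells thinned to 2000 UMIs and to -0.51 without cells with 3 or more proliferation UMIs. Rsad2, with 10 UMIs, and Cmpk2, with 11, missed the level needed to be counted, and their ratios were 5.13 (2.36 to 10.0) and 6.93 (3.28 to 13.4).

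The 2 labels overlapped in what was higher. Of the 23 genes in Cd4-labelled cells, 19 were also at 2-fold in Tdp-labelled cells, which is 82.6% of the 23 and 18.8% of the 101. Of the 101, 40 were counted in Cd4-labelled cells, and all 40 had a ratio above 1 there. These 40 stand among 2110 genes counted in both labels. Over all counted genes, 2.28% were at 2-fold in Tdp-labelled and 1.09% in Cd4-labelled cells. The median log2 ratio of all counted genes in Cd4-labelled cells was -0.002. The antiviral list had a summed ratio of 1.69 (1.64 to 1.75) with 7 of 19 counted members at 2-fold, the sensors 1.93 (1.77 to 2.11) with 6 of 9, and the GTPases 1.73 (1.55 to 1.92) with 1 of 6. The interferon gamma gene Ifng stood at 543 and 339 CPM, a ratio of 1.60 (1.38 to 1.85). For the antiviral, sensor and GTPase lists the intervals of the labels did not overlap, and the difference between labels has no replicate check.

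The other calls in Cd4-labelled cells rest on few UMIs or cells. Higher here but not called in Tdp-labelled cells were Atf3, Ppp1r15a, Ctcf and Gm156, which, like 1700020I14Rik below, are named after their values were seen. Atf3 and Ppp1r15a, genes of the cell stress response, owed 43 of 155 and 31 of 79 UMIs to a single cell each, and without it their ratios were 1.83 and 1.31. Gm156 owed 22 of 35 UMIs to 1 cell and had a ratio of 0.918 without it. Ifih1 and Ms4a4c, called in both labels, had ratios of 1.72 and 1.80 in Cd4-labelled cells without the cell that held most of their UMIs. Ctcf, which organises chromatin loops, had 31 UMIs, a ratio of 2.25 (1.51 to 3.24) here and one of 0.664 (0.440 to 0.966) in Tdp-labelled cells. Lower were Spp1 (osteopontin) at 47.8 and 254 CPM, Klf2, a factor of quiescent and recirculating T cells, at 56.3 and 158, Rgcc at 177 and 488, Mff, with a log2 ratio of -1.25, Eif5b, with -1.07, and 1700020I14Rik. Ifit-positive cells held 17 Spp1 and 20 Klf2 UMIs. In Tdp-labelled cells the ratios of Spp1, Klf2 and Rgcc were 1.17, 0.907 and 1.02. Dusp14, the next lowest of the named genes, had a log2 ratio of -0.98.

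With the labels pooled, and Ifit-negative levels weighted to the label mix of the Ifit-positive cells, 86 of 4469 genes reached a 2-fold higher level (1.92%) and 0 a 2-fold lower one (0%). The highest log2 ratios were those of Ifit3b (4.58), Rsad2 (4.32), Cxcl10 (4.23), Slfn5 (3.80), Cmpk2 (3.79), Isg15 (3.33), Mx1 (3.25), Usp18 (2.76), Rtp4 (2.58), Ifit1bl1 (2.57), Ifit2 (2.52), Ifih1 (2.37), Irf7 (2.31), Dhx58 (2.28), Daxx (2.23) and Ifi208 (2.23). Ifi208 belongs to the PYHIN family of DNA-binding proteins, and Ifit1bl1 and Ifit2 are relatives of the selecting genes. The lowest were Timm8a1 (-0.97), Ccl9 (-0.79), Srgap3 (-0.76), Ei24 (-0.71), Fyttd1 (-0.70), Sept11 (-0.69), Pex16 (-0.67), Cd160 (-0.67), Upf3b (-0.66) and Lonp2 (-0.66).

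The program was graded by the number of Ifit UMIs, and cells with a single Ifit UMI lay between the sides. In Tdp-labelled cells with 0, 1, 2, 3 to 4 and 5 or more Ifit1 and Ifit3 UMIs, the sensor list stood at 703, 1080, 1633, 2081 and 3111 CPM. Isg15 stood at 126, 274, 719, 1126 and 2602 CPM, and Rsad2 at 6.43, 21.3, 41.2, 129 and 362. Class I genes went from 13211 to 17343 CPM over the same steps, and the receptors stood at 660, 659, 633, 719 and 633. Of 45 antiviral effectors, cells thinned to 2000 UMIs showed a median of 6, 8, 10, 12 and 17 genes. The number of different effectors seen per cell was thus higher in the higher classes. Median depth in the same classes was 6647.5, 6943, 6276, 5958 and 6237 UMIs.

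In cells with 3 or more Ifit UMIs the antiviral list was lower under the Cd4 label than under the Tdp label, while below that the order depended on Ifi27l2a, its most abundant member. The whole list stood at 9358 CPM (9152 to 9567) in Cd4-labelled and 7976 CPM (7838 to 8116) in Tdp-labelled cells with 1 UMI. With 2 UMIs it stood at 10829 and 10822 CPM, and with 3 or more at 11444 and 16413 CPM. Without Ifi27l2a the list with 1 UMI stood at 5862 CPM (5699 to 6028) in Cd4-labelled and 5851 CPM (5732 to 5970) in Tdp-labelled cells. Without this gene and with 2 UMIs it stood at 6735 (6402 to 7081) and 7806 (7581 to 8037) CPM. With 3 or more UMIs it stood at 8091 CPM (7605 to 8599) in 21 Cd4-labelled and 12743 CPM (12502 to 12988) in 129 Tdp-labelled cells. Irf7 stood at 235 CPM (158 to 335) and 627 CPM (575 to 683) in these groups, while Isg15 stood at 1696 CPM (1478 to 1938) and 1986 CPM (1891 to 2084).

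**Figure D4:**
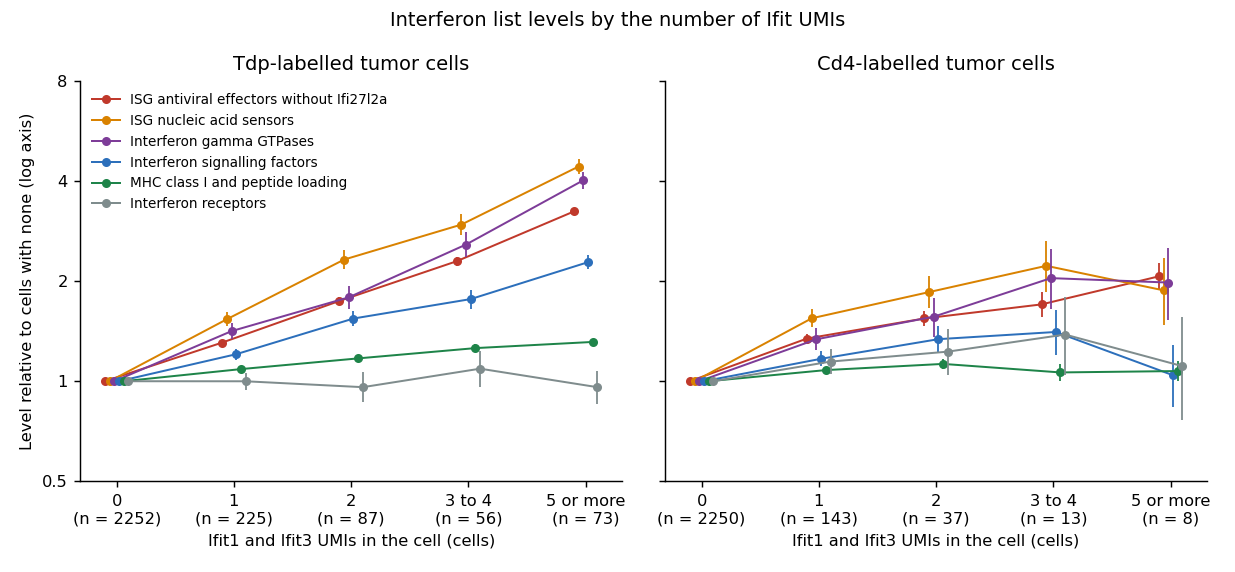
Level of 6 interferon lists relative to cells with no Ifit1 or Ifit3 UMI (log axis), by the number of these UMIs in the cell and by label, with 95% Poisson intervals of each level. In Tdp-labelled cells the sensor list goes from 703 CPM to 3111 CPM while the receptors stay near 660 CPM, and in Cd4-labelled cells the 2 highest classes hold 13 and 8 cells.

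The 8 Cd4-labelled cells with 5 or more Ifit UMIs had an uneven program. Their Isg15 UMIs ranged from 6 to 55, but Irf7 stood at 205 CPM over the 8 cells, below the 299 CPM (232 to 379) of the cells with 2 UMIs though within its interval of 102.5 to 367. Thinned to 2000 UMIs, they showed 7 to 16 of the 45 effectors, with a median of 9. Ifng stood at 1605 CPM (1284 to 1982) in these 8 cells, beside 325 CPM in the 37 cells with 2 UMIs and 339 CPM in Ifit-negative cells. Of the 8, 5 cells had 7 or more Ifng UMIs, and 2 had 145 and 158 UMIs of Ccl4, a chemokine of activated T cells. Without the 5 Cd4-labelled cells highest in Ifit1 and Ifit3 the log2 ratio of Ifng, the only ligand in the table, was 0.19 in that label, in place of 0.68.

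The coreceptor transcripts of Tdp-labelled Ifit-positive cells differed from those of the rest of their label. No UMI of Cd8a or Cd8b1 was found in 35 of 216 of them, or 16.2% (11.6 to 21.8). The share was 2.89% (2.23 to 3.66) in Ifit-negative cells and 4.89% (2.47 to 8.58) in cells with 1 UMI. After thinning to 2000 UMIs the shares were 18.7%, 8.14% and 11.6% in the same order. Of the 86 Tdp-labelled cells with Cd4 but no Cd8 UMIs, 28 were Ifit-positive, or 32.6%, whereas 48 of 1846 such cells were Ifit-positive under the Cd4 label, or 2.60%. Classed by UMIs over both labels, Ifit-positive cells were 3.93% of cells with Cd4 only, 6.31% of those with both coreceptors and 7.38% of those with Cd8 only.

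**Figure D5:**
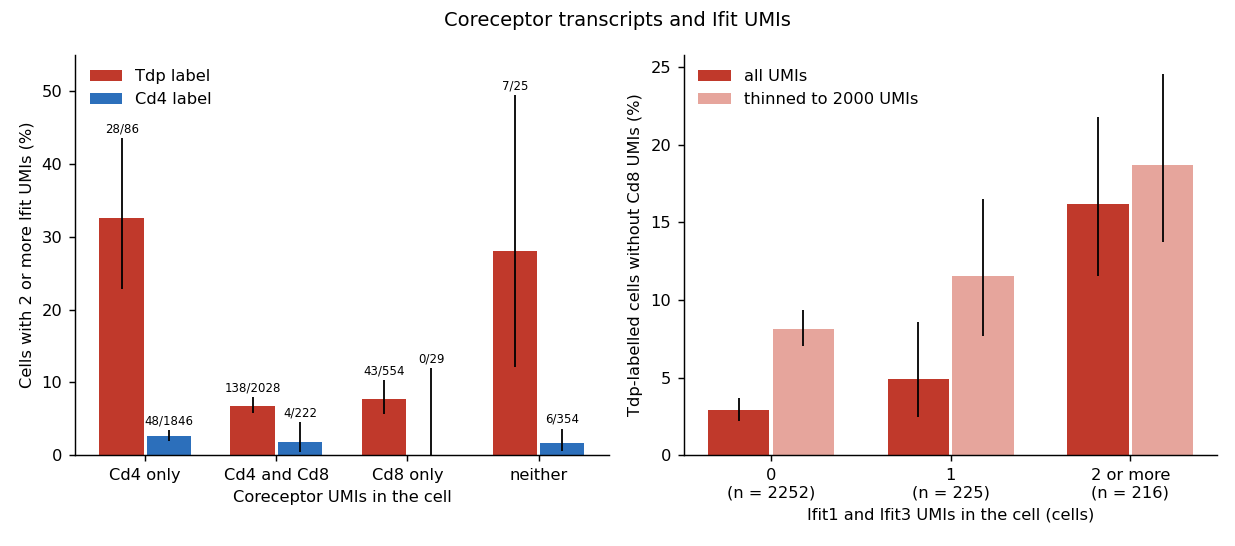
Left, share of cells with 2 or more Ifit1 and Ifit3 UMIs by coreceptor UMIs and label, with the cells behind each bar, and right, share of Tdp-labelled cells without a Cd8a or Cd8b1 UMI by the number of Ifit UMIs, on all UMIs and after thinning to 2000. Lines are exact 95% intervals. The tallest bar on the left stands for 28 of 86 cells, and on the right the share is 2.89% at 0 UMIs and 16.2% at 2 or more.

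Some helper transcripts in these 35 cells were near the levels of Cd4-labelled cells and others were not. Cd40lg, the helper ligand that activates B cells and dendritic cells, was seen in 18 of the 35 (51.4%, 34 to 68.6), in 9 of the 181 Ifit-positive Tdp-labelled cells with Cd8 UMIs (4.97%), and in 48.5% of Cd4-labelled Ifit-negative cells without Cd8 UMIs. Tnfrsf4 (OX40), a costimulatory receptor, stood at 830.3 CPM in the 35, 139.9 CPM in the 181 and 1082 CPM in the Cd4-labelled group. Tnfsf11 and Tnfsf8, ligands of the tumor necrosis factor family, were each seen in 1 of the 35 (2.86%), but in 26.5% and 15.0% of the Cd4-labelled group. Gzmb stood between the other groups, at 846 CPM in the 35, 4366 in the 181 and 435 in the Cd4-labelled group. Ccl5, a chemokine of cytotoxic cells, stood at 4511, 20558 and 1626 CPM in the same order. Isg15 stood at 2443 CPM in the 35 and 1314 in the 181. Of the 65 Ifit-negative Tdp-labelled cells without Cd8 UMIs, 8 had Cd40lg (12.3%, 5.47 to 22.8). In these 65 cells Tnfrsf4 stood at 330 CPM, Gzmb at 2055, Ccl5 at 12209 and Isg15 at 234. Tnfsf11 and Tnfsf8 were each seen in 2 of the 65 (3.08%). The sources used here do not say how cells were labelled, and the part of the labelling in this result was not tested.

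Some calls and list ratios of the Tdp comparison differed when cells were matched by coreceptor UMIs. Matching also left fewer Tdp-labelled Ifit-positive cells, 181, and the parts of the mix and of the cell number were not tested. Regardless of the minimum level, 94 of the 101 genes stayed at 2-fold. Cd40lg had a ratio of 10.4 (7.05 to 15.2) over all Tdp-labelled cells, at 39.5 and 3.81 CPM. Restricted to cells with Cd8 UMIs it stood at 16.3 and 3.29 CPM, a ratio of 4.94 (2.78 to 8.47), and was too low to be counted. With the labels matched in this way (Cd8 UMIs present for Tdp, absent for Cd4) 92 of the 101 genes were again called, and the 9 others were Cd40lg, Gbp3, Furin, Maf, Cmtr1, Gypc, Snx2, Pcgf5 and March5. Isg15 then had a ratio of 10.6 (9.95 to 11.4), Rsad2 of 26.8 and Irf7 of 5.15. The summed ratio of the helper list in Tdp-labelled cells was then 1.13 in place of 1.34. That of the cytotoxic list was 1.07 in place of 0.983. Of the 23 genes of Cd4-labelled cells, 18 were again called.

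Markers of other cell types were low on both sides, but not absent. At least 1 UMI of the dendritic list without Bst2 was seen in 10.2% of Ifit-positive and 16.1% of Ifit-negative Tdp-labelled cells, and of the macrophage list in 8.80% and 12.03%. Natural killer genes stood at 45.8 and 60.6 CPM and gamma delta T cell genes at 177 and 153 CPM. Of the B cell list, Cd79a, Ms4a1 and Pax5 were at 0 in Tdp-labelled cells of both sides, yet the list summed to 26.8 CPM in Ifit-positive and 6.63 CPM in Ifit-negative cells, a ratio of 4.04 (2.71 to 5.92). Ighm, the mu heavy chain, gave 34 of the 38 Ifit-positive UMIs, in 16 cells. In Cd4-labelled cells the list stood at 47.8 and 25 CPM, with Ighm in 17.2% and 10.7% of cells. The macrophage list stood at 14.1 and 20.02 CPM in Tdp-labelled and 11.3 and 10.9 CPM in Cd4-labelled cells, with Lyz2, Csf1r and C1qa at 0 on both Ifit-positive sides. The melanoma list held 2 UMIs in each label's Ifit-positive cells. The dendritic list without Bst2 stood at 18.3 and 32.5 CPM in Tdp-labelled cells. Ighm was the part of the list that moved with the sides, and its part in the results was not tested. Without cells in the top 5% of depth or with 2 or more B cell, macrophage or melanoma UMIs, 96 of the 101 genes were at 2-fold.

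The same split of lymph node cells, titled as endogenous, gave many of the same genes. In Cd4-labelled lymph node cells 86 of the 101 tumor genes were counted, 83 had a ratio above 1 and 58 were at 2-fold, beside 1.80% of all counted genes. In Treg-labelled cells 38 were counted, 36 had a ratio above 1 and 23 were at 2-fold, beside 2.07%. In Cd8-labelled lymph node cells the antiviral list stood at 11219 and 5350 CPM, a ratio of 2.10 (2.07 to 2.12), and of the 101 tumor genes 87 were counted there, 87 had a ratio above 1 and 60 were at 2-fold, where 1.72% of all counted genes were.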

How the data were processed

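The authors deposited raw UMI counts per gene and cell for 14721 genes and 10558 cells, and a table of each cell's library and label. Cell Ranger 3.1.0 and mm10 are named in the submitters' processing notes. The sources used here do not give the filters before deposition, the rule behind the labels or whether doublets were removed, and no doublet caller was run.

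Cells were split by UMIs of Ifit1 and Ifit3 as described, and counts of the other genes were summed per side and scaled to a common total (CPM). Ratios were taken on log2 of CPM plus 1, called at 2-fold. Printed ratios are of CPM without the added 1. Their intervals are exact conditional Poisson intervals, and shares carry Clopper-Pearson intervals. UMIs of 1 cell are not independent, so intervals may be too narrow. Median depth was 5862.5 UMIs per tumor cell. Functions were tested on simulated counts.

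The cells, the 31 gene lists (374 genes, 352 in the table) and the alternatives were chosen with earlier results of these data known. Named genes were the 16 highest and 10 lowest pooled ratios and the 8 highest and 6 lowest per label, leaving out predicted genes, receptor segments, Xist, Y-linked genes and genes of mitochondria and ribosomes, plus examples of each list. Coreceptor matching, leaving out single cells or the 5 highest cells, leaving Isg15 out of the feedback list, and the lymph node split were added after the data were seen. Alternatives used edgeR 4.0.16 (TMM factors), Python 3.11.15, numpy 2.4.6 and scipy 1.17.1. The receptor libraries were not used here. Some list members are not reported here.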

Additional observations from a re-analysis of the deposited data

How the results depend on the processing

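No paired analysis was possible because each tissue had 1 RNA library. In Tdp-labelled cells, the 101 higher genes all kept a ratio above 1 in the 11 alternatives where each was followed, except Ms4a4c without cells with 3 or more proliferation UMIs, and 66 to 101 of them stayed at 2-fold. Reported counts of higher genes were 101 (Tdp), 23 (Cd4) and 86 (pooled), and of lower genes 0, 6 and 0. With no minimum level the higher counts were 324, 688 and 203 and the lower ones 309, 1595 and 219, since genes with few UMIs then entered. A minimum of 50 UMIs left 6 higher and 2 lower in Cd4-labelled cells. Thinning to 2000 UMIs gave 5 higher and 2 lower in Cd4-labelled and 2 lower in Tdp-labelled cells. With sides set on thinned cells, Cd4-labelled cells had 9 higher and 3 lower, and 4 (Tdp) and 2 (pooled) were lower. Taking 1 or more UMIs as positive gave 59 higher (Tdp), 46 higher (pooled) and 2 lower (Cd4). Taking 3 or more gave 12 higher (Cd4), 4 lower (Tdp) and 6 lower (pooled). Without cells with 3 or more proliferation UMIs, a rule that removed 81.5% of Tdp-labelled Ifit-positive cells, 43 (Tdp), 5 (Cd4) and 40 (pooled) were higher and 2 (Tdp) lower. Counts of lower genes were 3 (Tdp) and 1 (pooled) without possible doublets, 3 and 1 with labels matched by coreceptor UMIs, 1 and 1 without the 5 cells highest in Ifit1 and Ifit3, 5 (pooled) with plain sums, and 1 (pooled) when totals left out receptor, mitochondrial and ribosomal protein genes. Of the 23 higher genes of Cd4-labelled cells, 9 stayed at 2-fold with 1 or more UMIs, 11 with sides set on thinned cells and 12 without cells with proliferation UMIs. The log2 ratio of Ddx58 there turned to -0.12 with sides set on thinned cells and to -0.51 without cells with proliferation UMIs. That of Klf2 turned to 0.049 with 1 or more UMIs. Also below a ratio of 1 were Phf11b with sides set on thinned cells and Ms4a4c with cells thinned to 2000 UMIs. Gm156 was below 1 with 3 or more UMIs and without cells with proliferation UMIs. Apart from the alternatives that change the minimum or the cells used, the cause of these shifts was not tested. With 58 Cd4-labelled Ifit-positive cells, genes under 56.3 CPM could not be counted there.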
